A study of Mus musculus with 6 samples.

Results

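Red blood cell genes were measured in mouse colon mucosa: the adult globin genes Hba-a1, Hbb-b1 and Hbb-b2, and Alas2 of haem synthesis. They were taken by name, as every probe whose symbol in the deposited probe table is one of these 4. Each had 1 probe, so that 4 of 25697 probes, and 4 of 18138 gene symbols, are described. Mice lacking microRNA-21 on a C57BL/6 background (miR-21 KO, 3 samples) were compared with wild type C57BL/6 mice (WT, 3 samples). None of them were treated, and total RNA of each sample was labelled with Cy3 and read on its own bead array. The KO line came from another laboratory and the WT mice from Taconic, so that the deletion and the source of the mice cannot be told apart in any comparison. The labels give neither age nor sex, and do not say how many animals a sample holds. The 4 genes were selected on their measured levels in these samples, with the KO and WT difference of the beta globin probes known, so their differences are given as a description, with no test.

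Haemoglobin is a tetramer of alpha and beta globin chains that each hold a haem. Mature red cells of mammals have no nucleus, but young ones (reticulocytes) still carry globin mRNA, so blood left in the vessels of a tissue adds globin mRNA to its RNA. Alas2 encodes the erythroid form of the enzyme that starts haem synthesis. The adult beta globin genes of mice come in haplotypes. C57BL/6 carries the "single" haplotype, with the genes Hbb-bs and Hbb-bt, while other strains, BALB/c among them, carry the "diffuse" haplotype, with Hbb-b1 (beta major) and Hbb-b2 (beta minor). The haplotype of these mice was not measured. In bulk tissue, fewer cells of a type and less RNA per cell cannot be told apart.

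The annotation of the beta globin probes bears on every result below. For the probe named Hbb-b1 (ILMN_1235372), the gene table used here (RefSeq, GRCm38.p6) leads from its Entrez ID to Hbb-b1 but from its transcript accession to Hbb-bt, a gene of the C57BL/6 haplotype. For the probe named Hbb-b2 (ILMN_2729513), both lead to Hbb-b2. The table places 5 beta globin genes side by side on chromosome 7 (Hbb-bt, Hbb-bs, Hbb-bh2, Hbb-bh1 and Hbb-y), and 0 of Hbb-b1 and Hbb-b2 within that stretch. No probe was named Hbb-bs or Hbb-bt. The alpha globin probe (ILMN_1212702, chromosome 11) is named Hba-a1, and none is named Hba-a2. Adult globin genes of one type are close copies of each other, and the probe sequences are not used here, so which of their mRNAs each probe binds was not tested.

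The promoters of Hbb-bt, to which the Hbb-b1 probe's accession leads, of its neighbour Hbb-bs and of Hba-a1 are shown so that the beta genes can be compared with each other and with alpha globin. Each runs from 250 bases before to 50 bases after the start of the gene, 5′ to 3′ on the gene's own strand (RefSeq, GRCm38.p6). Capitals mark matches, on either strand, to the GATA box GATAA, to the CACCC box of erythroid promoters, and to the CCAAT box and the TATA box TATAA. Where matches overlap, the capitals run together. The windows are chr7:103813874-103814173 (minus strand) for Hbb-bt, chr7:103827879-103828178 (minus strand) for Hbb-bs and chr11:32283422-32283721 (plus strand) for Hba-a1.
Hbb-bt promoter: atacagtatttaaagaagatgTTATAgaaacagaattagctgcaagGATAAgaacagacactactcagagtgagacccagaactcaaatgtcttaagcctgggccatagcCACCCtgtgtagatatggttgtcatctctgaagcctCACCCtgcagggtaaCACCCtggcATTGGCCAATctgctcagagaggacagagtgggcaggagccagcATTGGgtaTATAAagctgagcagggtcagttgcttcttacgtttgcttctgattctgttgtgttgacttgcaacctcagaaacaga
Hbb-bs promoter: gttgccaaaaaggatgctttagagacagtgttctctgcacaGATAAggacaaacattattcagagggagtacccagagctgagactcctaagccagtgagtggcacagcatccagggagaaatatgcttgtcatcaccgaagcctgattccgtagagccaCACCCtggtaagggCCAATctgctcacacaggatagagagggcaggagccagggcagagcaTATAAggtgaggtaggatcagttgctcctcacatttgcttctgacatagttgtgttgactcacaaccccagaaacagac
Hba-a1 promoter: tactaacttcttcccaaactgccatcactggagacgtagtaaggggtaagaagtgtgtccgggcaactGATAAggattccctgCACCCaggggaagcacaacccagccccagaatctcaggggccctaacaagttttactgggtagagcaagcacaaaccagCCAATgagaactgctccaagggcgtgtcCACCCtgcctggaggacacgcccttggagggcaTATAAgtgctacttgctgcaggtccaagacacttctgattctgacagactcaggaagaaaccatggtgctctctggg

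Each of these 3 promoters held all 4 motifs, as did 1.51 percent of the 32851 promoters of the same length. Alone, the GATA box was found in 25.4 percent of promoters, the CACCC box in 57.5 percent, the CCAAT box in 37.4 percent and the TATA box in 24.9 percent. The CCAAT box matched 3 times in Hbb-bt and 1 time in Hbb-bs. The promoters of Hbb-bt and Hbb-bs were identical at 72.7 percent of aligned positions, while those of Hba-a1 and Hba-a2 shared an unbroken run of 297 bases. The Alas2 promoter held the GATA, CACCC and TATA boxes and had no match to the CCAAT box. These are matches of letters and no test of binding. The microRNA deleted in the KO mice, miR-21a-5p (chr11:86584120-86584141, minus strand), is shown with its seed, bases 2 to 8, in capitals.
miR-21a-5p: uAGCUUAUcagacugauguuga

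Across tested probes, Pearson's r was 0.981 to 0.990 between replicates of a group and 0.956 to 0.972 between a KO and a WT array. Median intensity was 98.3 to 109.3 units on KO arrays and 97.0 to 115.0 units on WT arrays. A probe is called detected where its detection p-value, set against the negative control beads of the array, is under 0.05. That held for 53.9 to 54.6 percent of probes on KO arrays and 50.4 to 52.3 percent on WT arrays. The colon epithelium markers Cdh1, Krt8, Vil1 and Cdx2 were detected in all 6 samples. No probe was named Epcam or Muc2.

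Alpha globin was bright in every sample. The Hba-a1 probe read 907.9, 1051.6 and 1464.5 intensity units in KO replicates 1 to 3, against 1099.5, 1134.2 and 1020.5 units in WT replicates 1 to 3. After background correction and quantile normalization, its log2 levels were 9.57, 9.80 and 10.85 in KO, against 9.85, 9.66 and 10.36 in WT. The groups overlapped, and KO held both the highest sample (replicate 3) and the lowest (replicate 1). The mean log2 level was 10.07 ± 0.68 in KO and 9.96 ± 0.36 in WT (SD, n = 3 each), a difference of 0.12. Samples of 1 group differed by more than that, by up to 2.44-fold in KO and 1.63-fold in WT. WT replicate 3 was the lowest WT sample before normalization and the highest after it. The sign of the difference rested on single samples: it was -0.27 without KO replicate 3 and -0.03 without WT replicate 2.

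The Hbb-b1 probe was lower in KO. It read 126.7, 107.6 and 104.7 units in KO, against 190.9, 190.2 and 166.3 units in WT. The standard error over the beads of 1 array was 3.13 to 3.64 units in KO and 6.87 to 7.05 units in WT, which is the measuring error within an array and not the spread between samples. Normalized log2 levels were 5.28, 4.64 and 5.10 in KO, against 6.65, 6.43 and 7.16 in WT. Every KO sample lay below every WT sample, and the probe was detected in all 6. KO replicate 2 was close to the lowest level that its array detected (4.53). KO replicates 1 and 3 were not far above theirs (4.52 and 4.54). The KO level is thus near background, which limits the size of the fold. The mean log2 level was 5.004 ± 0.329 in KO and 6.744 ± 0.376 in WT (SD, n = 3 each), a difference of -1.74, or 3.34-fold lower in KO.

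The Hbb-b2 probe was higher in KO. It read 125.0, 146.6 and 164.9 units in KO, against 98.0, 96.3 and 89.8 units in WT. It was detected in 3 of 3 KO samples and 0 of 3 WT samples, where its detection p-values were 0.743, 0.974 and 0.653. Normalized log2 levels were 5.22, 5.84 and 6.85 in KO, against 4.21, 4.15 and 4.23 in WT, with no overlap. The WT level is therefore only a bound. Set against the lowest level that each WT array detected, the mean of the KO samples was at least 2.57-fold higher. The measured means were 5.97 ± 0.82 in KO and 4.19 ± 0.04 in WT (log2, SD, n = 3 each).

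**Figure D1:**
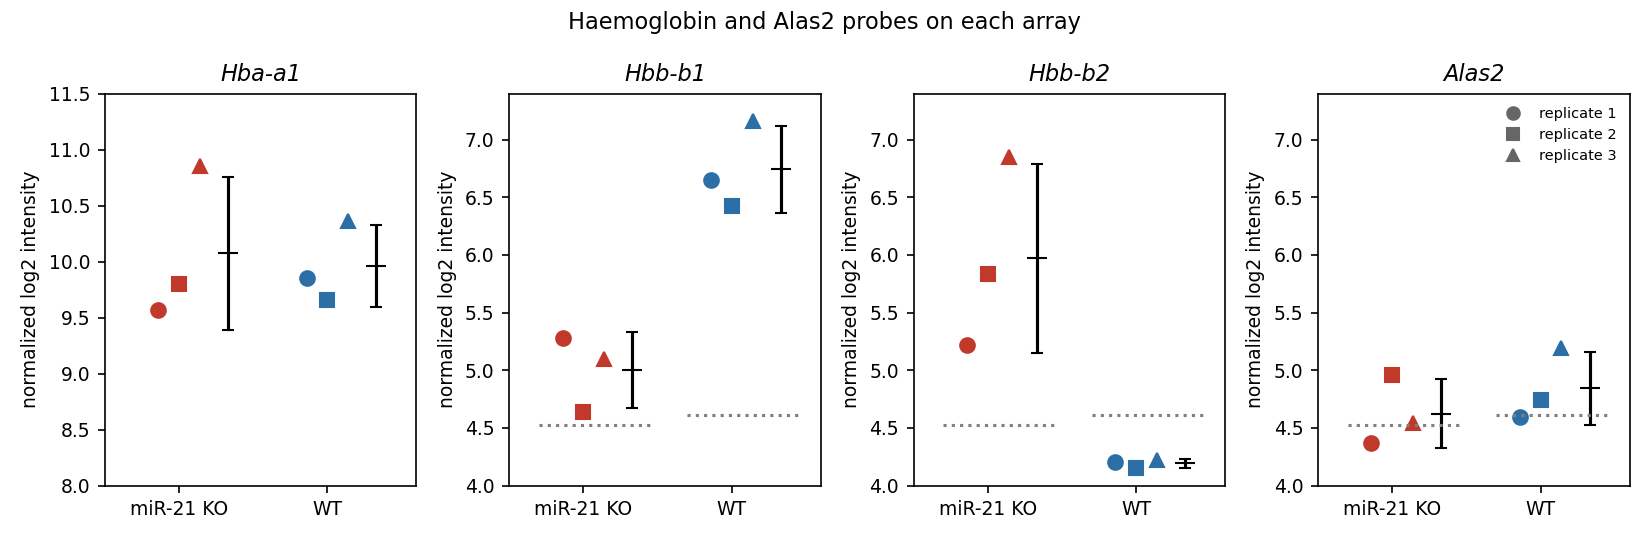
Normalized log2 intensity of the 4 probes in each sample, with miR-21 KO left of WT (points, 1 per sample; bar, mean ± SD, n = 3; dotted line, mean of the lowest detected level on the group's arrays; the Hba-a1 axis has another range). Hba-a1 overlapped between the groups, Hbb-b1 was lower in all 3 KO samples, Hbb-b2 lay above the dotted line in KO and below it in WT, and Alas2 lay near it in both groups.

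Alas2 was close to background. Its probe read 101.8, 115.2 and 96.5 units in KO, against 109.6, 116.6 and 103.2 units in WT, and was detected in 2 of 3 KO samples and 3 of 3 WT samples. Normalized log2 levels were 4.37, 4.96 and 4.55 in KO, against 4.59, 4.74 and 5.20 in WT, and the groups overlapped. The mean log2 level was 4.62 ± 0.30 in KO and 4.84 ± 0.32 in WT (SD, n = 3 each), a difference of -0.22.

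Thus 2 of the 4 probes had groups that did not overlap, 1 higher and 1 lower in KO. The same was true of 36.4 percent of the 13737 tested probes, those detected in at least 3 samples (19.4 percent higher and 17.0 percent lower in KO). Nothing is read from the members' count, since it comes from the comparison on which they were chosen. The embryonic and minor globins were at or near background. Hbb-y (2 probes) and Hbq1, now Hbq1a, were detected in 0 of 6 samples, Hba-x in 1 of 3 KO and 0 of 3 WT samples, and Hbb-bh1 in 0 of 3 KO and 1 of 3 WT samples. These 5 probes were not tested.

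Each beta globin probe was then set against alpha globin of the same sample. That takes out what the globins share, such as the amount of blood, only where both probes are well above background. Hbb-b1 was near background in KO, and Hbb-b2 was at background in WT. Probes differ in brightness, so the size of such a difference within a sample has no meaning of its own, and only its change from sample to sample is compared. Hbb-b1 minus Hba-a1 was -4.29, -5.17 and -5.75 (log2) in KO, against -3.20, -3.23 and -3.21 in WT. The WT samples lay within 0.03 of each other, and their alpha globin level spanned 0.71. Both spans depended on the processing: with no background correction or scaling, alpha globin spanned 0.15 in WT and the difference 0.09. Median scaling gave 0.16 and 0.12, and cyclic loess 0.76 and 0.21. In KO the difference spanned 1.47, or 0.96 with no background correction or scaling, and the Hbb-b1 level did not follow the order of alpha globin. The Hbb-b1 level itself, near background, spanned 0.64 in KO and alpha globin 1.29. The span of the difference ran from KO replicate 1 to KO replicate 3. From the former to the latter, alpha globin went from 9.57 to 10.85 and Hbb-b1 from 5.28 to 5.10. Most of this span was therefore that of alpha globin, set against a probe near background. The mean was -5.07 ± 0.74 in KO and -3.21 ± 0.02 in WT (SD, n = 3 each), so that relative to alpha globin the Hbb-b1 probe was 3.62-fold lower in KO. Background in KO limits the size of this fold.

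In KO it was the Hbb-b2 probe that had the same order as alpha globin. Hbb-b2 minus Hba-a1 was -4.34, -3.97 and -4.00 (log2) in KO, against -5.65, -5.51 and -6.14 in WT, where the Hbb-b2 probe was at background. The KO samples spanned 0.37 on this measure, while their alpha globin level spanned 1.29. With no background correction or scaling, alpha globin spanned 0.69 in KO. The span of Hbb-b2 minus Hba-a1 was not computed for the other ways of processing. With the lowest detected level of each WT array in place of the undetected probe, Hbb-b2 relative to alpha globin was at least 2.37-fold higher in KO. Hbb-b1 minus Hbb-b2 was 0.05, -1.20 and -1.75 in KO, against 2.44, 2.28 and 2.93 in WT, without overlap. KO replicate 1 stood nearest to WT, with the highest Hbb-b1 and the lowest Hbb-b2 level of the KO samples. With the same bound, Hbb-b1 relative to Hbb-b2 was at least 8.57-fold lower in KO. With no background correction or scaling, the measured differences between groups were -0.74 for Hbb-b1 minus Hba-a1, 0.57 for Hbb-b2 minus Hba-a1 and -1.30 for Hbb-b1 minus Hbb-b2.

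**Figure D2:**
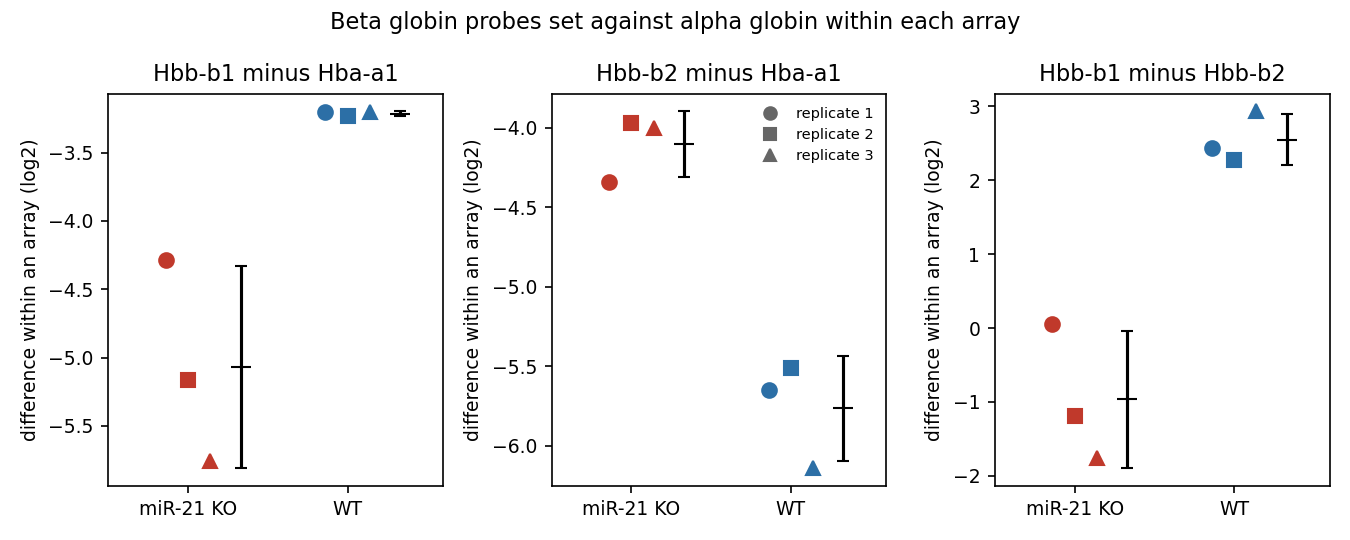
Differences of normalized log2 levels within each sample, with miR-21 KO left of WT: Hbb-b1 minus Hba-a1, Hbb-b2 minus Hba-a1 and Hbb-b1 minus Hbb-b2 (points, 1 per sample; bar, mean ± SD, n = 3). The WT points for Hbb-b1 minus Hba-a1 lie within 0.03 of each other here, and spanned 0.21 with cyclic loess. The groups do not overlap on any of the 3 measures. Hbb-b1 was near background in KO, and Hbb-b2 was not detected in WT.

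The genes whose normalized level was most like that of each member over the 6 samples were taken from 10344 genes, members left out. These correlations describe samples that fall into 2 groups, and carry no test. Nearest to Hba-a1 were Ndufa9, a subunit of respiratory complex I (r = 0.990), Actl6a, a subunit of chromatin remodelling complexes (r = 0.980), and Stard6 (r = 0.979). Nearest to Hbb-b1 were Mob4 (r = 0.993), Tmem126b (r = 0.990) and Vps37b (r = 0.990), all lower in KO than in WT by their means. Nearest to Hbb-b2 were Aacs, which activates acetoacetate (r = 0.998), Nnmt, a nicotinamide methyltransferase (r = 0.996), and the parathyroid hormone receptor gene Pth1r (r = 0.994), all higher in KO by their means. For Alas2 they were Gdpd2 (r = 0.991), Klhdc8b (r = 0.986) and Endov (r = 0.985). Several of these genes were near background. Pth1r had log2 levels of 4.34 to 4.38 in WT, below the lowest level detected on the WT arrays (4.59 to 4.65). Stard6 ran from 4.50 to 5.01, Gdpd2 from 4.59 to 5.42, Klhdc8b from 4.48 to 5.22 and Endov from 4.44 to 5.04. Among the members, r was -0.84 between the beta probes, 0.00 between Hbb-b1 and Hba-a1 and 0.53 between Hbb-b2 and Hba-a1.

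Other genes of red cells and blood were read from the limma fit of all tested probes, by list, with the brightest probe of each gene and without the 4 members. A gene is said to have risen or fallen where its Benjamini-Hochberg adjusted p was under 0.05. Of all tested probes 15.1 percent passed (7.53 percent higher and 7.55 percent lower in KO), and of all tested genes 15.7 percent (8.04 percent higher and 7.63 percent lower). In the 7 lists of globins, haem synthesis, red cell membrane, erythroid regulators, iron, platelets and white blood cells, 9 of 70 tested genes passed (12.9 percent), 6 higher and 3 lower in KO. Their median log2 difference was 0.00, where that of all tested genes was 0.03. The 9 became 3 without KO replicate 2, 4 without WT replicate 3, 5 with median scaling and 21 with array weights.

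Defining markers of red cells other than the globins were faint. Slc4a1, the anion exchanger band 3, was detected in 0 of 3 KO and 2 of 3 WT samples, and Epb42 in 0 of 6. Of 8 red cell markers, the members Hba-a1, Hbb-b1 and Alas2 included, 7 had a probe and 2 were detected in all 6 samples.

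Of 15 tested genes of the red cell membrane and its enzymes, 2 rose and 0 fell in KO, with a median log2 difference of 0.30. The water channel gene Aqp1, which capillary endothelium also expresses, had log2 levels of 9.14, 9.09 and 9.25 in KO, against 7.83, 8.38 and 8.27 in WT, without overlap (2.00-fold higher, limma adjusted p = 0.00945). Cd47, a surface protein of most cells, rose 1.49-fold (limma adjusted p = 0.0258), a call lost in 6 of 13 alternatives, among them each KO replicate left out in turn. The brightest gene of the list was Prdx2, a peroxiredoxin, at a log2 difference of 0.24 ± 0.15 (SE, limma adjusted p = 0.324).

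Of 11 tested haem synthesis genes 2 rose, 0 fell and 9 did not pass (median log2 difference 0.18), a count near the 15.7 percent of all tested genes, which became 1 with median scaling, without KO replicate 1 or 2, and without WT replicate 1 or 3. Alad, which makes porphobilinogen from the product of the ALAS enzymes, had log2 levels of 10.49, 10.10 and 10.22 in KO, against 9.17, 9.22 and 9.19 in WT. It was 2.11-fold higher in KO without overlap (log2 difference 1.08 ± 0.15 SE, limma adjusted p = 0.00439), and passed in all 13 alternatives. Urod, a later enzyme, rose 1.55-fold (limma adjusted p = 0.0262), a call lost without KO replicate 1 or 2, without WT replicate 1 or 3, and with median scaling. Alas1, the form of the first enzyme found in most tissues, had a log2 difference of -0.04 ± 0.16 (SE, limma adjusted p = 0.875). The brightest gene of the list, Tmem14c, a mitochondrial porphyrin transporter, had one of 0.30 ± 0.14 (SE, limma adjusted p = 0.162).

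Among 12 tested erythroid regulators and reticulocyte genes 0 rose and 1 fell in KO (median log2 difference -0.21). Gata1 and Nfe2, transcription factors of erythroid cells, were detected in no sample. The gene that fell was Bnip3l, through which reticulocytes clear mitochondria and which other tissues express too. Its log2 levels were 10.58, 10.51 and 10.63 in KO, against 11.11, 11.11 and 11.12 in WT (log2 difference -0.54 ± 0.13 SE, limma adjusted p = 0.0253), a call lost without KO replicate 1 or 2, without WT replicate 1 or 3, and with median scaling. The transferrin receptor gene Tfrc, the brightest, had a log2 difference of -0.44 ± 0.20 (SE, limma adjusted p = 0.161).

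Of 17 tested genes of haem breakdown and iron handling 2 rose and 0 fell in KO (median log2 difference 0.00), and both encode proteins of plasma. Trf (transferrin) had log2 levels of 8.53, 8.54 and 9.51 in KO, against 7.64, 7.39 and 7.59 in WT, and was 2.50-fold higher (limma adjusted p = 0.0133). Hp (haptoglobin, which binds free haemoglobin) had log2 levels of 6.25, 6.29 and 8.33 in KO, against 5.52, 4.95 and 4.42 in WT, and was 3.99-fold higher (limma adjusted p = 0.0323). KO replicate 3, the sample with the most alpha globin, was the highest for both. Without that sample the log2 difference of Hp was 1.31, where it was 2.00 over all samples. That of Trf was 1.00, where it was 1.32 over all samples. A link of either mRNA to the amount of blood was not tested. Hp was detected in 2 of 3 WT samples, and its call was lost in 5 of 12 alternatives, among them each WT replicate and KO replicate 2 left out. The haem oxygenase gene Hmox1 was near background and had a log2 difference of -0.16 ± 0.16 (SE, limma adjusted p = 0.539). The ferritin gene Fth1, the brightest of the list, had one of -0.05 ± 0.16 (SE, limma adjusted p = 0.860).

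Of 6 tested platelet genes 0 passed with limma, and 3 had an unadjusted p under 0.05 (median log2 difference -0.16). The brightest, Pf4, a chemokine of platelets, had log2 levels of 8.15, 8.58 and 9.23 in KO, against 9.30, 9.35 and 9.20 in WT (limma adjusted p = 0.109), and only KO replicate 3 reached the WT levels. Of 10 tested neutrophil and blood monocyte genes 0 rose and 2 fell in KO (median log2 difference -0.48). That count became 0 without KO replicate 2, 1 without KO replicate 1 or WT replicate 3, and 0 with no filter on dim probes. Of these, Il1r2, a decoy receptor for interleukin-1, was detected in 0 of 3 KO samples and was at least 1.39-fold lower (limma adjusted p = 0.0300, lost in 7 of 12 alternatives). Plac8, the brightest, had a log2 difference of -0.45 ± 0.15 (SE, limma adjusted p = 0.0647). The neutrophil markers S100a8 (log2 difference -1.88, limma adjusted p = 0.0527) and S100a9 (-1.51, limma adjusted p = 0.0620) did not pass. The brightest Csf3r probe was detected in 1 of 3 KO and 0 of 3 WT samples, and Cxcr2 in no sample. Of the tested genes of this list, 8 had a negative and 2 a positive difference.

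Of 15 tested endothelial genes 7 rose, 0 fell and 8 did not pass (median log2 difference 0.61), where 8.04 percent of all tested genes rose in KO. Alpha globin overlapped between the same groups. Egfl7 was 3.01-fold higher (limma adjusted p = 0.00136), the tight junction gene Cldn5 2.36-fold (limma adjusted p = 0.00734), the VEGF receptor gene Flt1 2.02-fold (limma adjusted p = 0.0114) and Plvap, of vessel fenestrae, 1.69-fold (limma adjusted p = 0.0416). The call of Plvap was lost in 9 of 13 alternatives, and those of Egfl7, Cldn5 and Flt1 in 0 of 13. Ramp2, the brightest, had a log2 difference of 0.59 ± 0.19 (SE, limma adjusted p = 0.0692). The 5 endothelial markers differed. Cldn5 and Pecam1 (1.52-fold, limma adjusted p = 0.0371) rose. Cdh5 (log2 difference 0.07, limma adjusted p = 0.756) and Tie1 (limma adjusted p = 0.0907, detected in 0 of 3 WT samples) did not pass, and Kdr was detected in no sample. Tek had a log2 difference of -0.02 (limma adjusted p = 0.948). The count of 7 became 3 with median scaling, 4 with cyclic loess, 3 without KO replicate 3 and 4 without KO replicate 1, KO replicate 2, WT replicate 1 or WT replicate 3.

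The summed normalized level of the endothelial list, on the linear scale, was 1713 to 2300 in KO and 1107 to 1407 in WT. That of the red cell membrane list was 6735 to 6940 in KO and 4754 to 5913 in WT. For the platelet list it was 399.7 to 727.6 in KO and 721.8 to 787.1 in WT. For the colon epithelium list it was 57578 to 61728 in KO and 64389 to 65425 in WT. The brightest genes weigh most in such sums. In the red cell membrane list these were Prdx2 and Blvrb (mean log2 levels 11.83 and 10.27), of which neither passed. In the platelet list it was Pf4 (8.97), while 3 of the 6 genes had a positive and 3 a negative difference. Of 12 tested epithelial genes 1 rose (Krt18) and 3 fell (Vil1, Krt20 and Car4) in KO. The call of Car4 was lost in 10 of 13 alternatives, that of Krt18 in 8, that of Krt20 in 2 and that of Vil1 in 0. The count of 4 became 1 without KO replicate 2 or WT replicate 1, and 2 without KO replicate 3, WT replicate 2 or WT replicate 3. In that list the brightest, Lgals4, had a limma adjusted p of 1.00. The part of vessel, blood cell or epithelial content in the globin values was not tested.

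**Figure D3:**
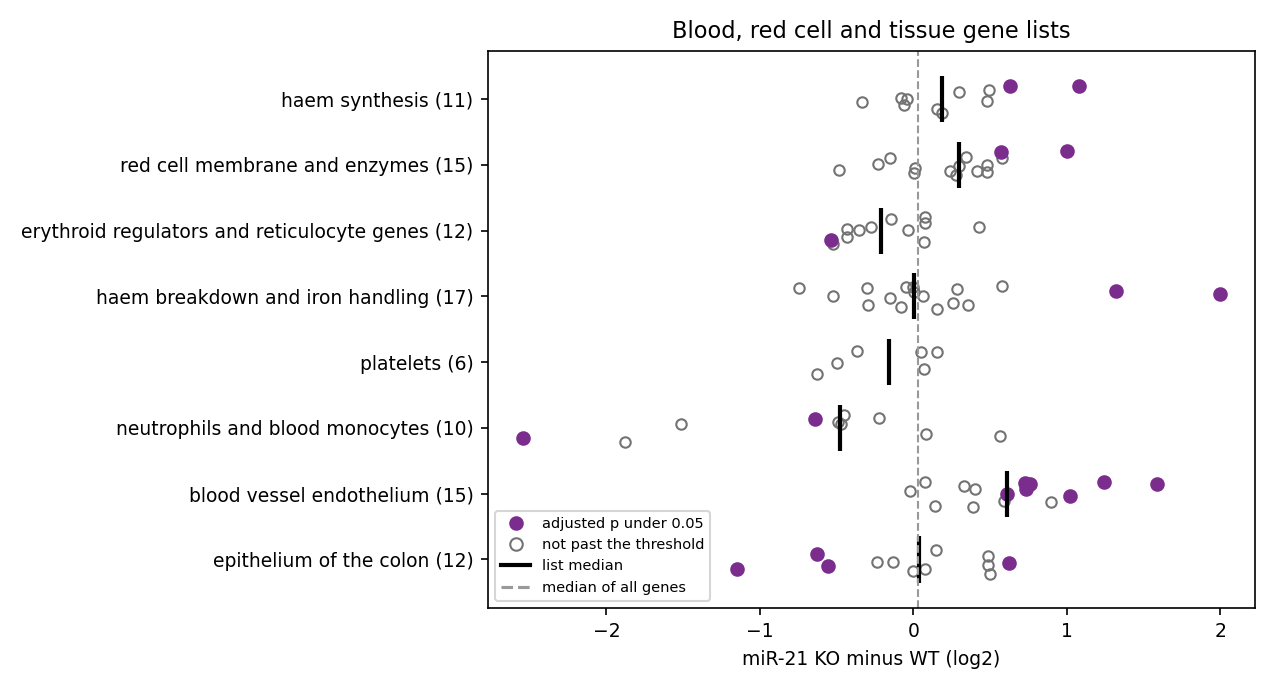
Log2 difference, miR-21 KO minus WT, of each tested gene in 8 lists (points, 1 per gene with its brightest probe; filled, limma adjusted p under 0.05; black bar, list median; dashed line, median of all genes; number tested in brackets). The points of the haem synthesis, red cell membrane and iron lists lie on both sides of 0, with 7 of 11, 12 of 15 and 9 of 17 to the right of it. Of the endothelial genes, 7 of 15 are filled to the right of 0.

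Genes that lie beside the globin genes were counted as well, since the name and the accession of the Hbb-b1 probe lead to genes of different haplotypes. Within 2 Mb of the beta globin genes 49 probes of 35 genes were tested. Of these probes 8 were higher and 3 lower in KO (22.4 percent), where 15.1 percent of all tested probes passed. Whether that share differs from the background was not tested.

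The 3 probes that fell belong to TRIM genes, a family of ubiquitin ligases. Trim30a had log2 levels of 5.85, 4.24 and 4.33 in KO, against 8.63, 7.24 and 7.71 in WT, with detection in 1 of 3 KO and 3 of 3 WT samples (limma adjusted p = 0.00606). The measured means differed by 8.29-fold, lower in KO, where KO replicates 2 and 3 were at background. Trim30d had log2 levels of 6.05, 4.62 and 4.69 in KO, against 7.70, 6.76 and 6.71 in WT, and was 3.83-fold lower (limma adjusted p = 0.0154). That call was lost without KO replicate 2 and with no filter on dim probes. For both genes, as for the Hbb-b1 probe, KO replicate 1 was the highest of the KO samples, and no KO sample reached the WT levels. Trim21 was 1.83-fold lower (limma adjusted p = 0.00977, lost without KO replicate 2 and with median scaling). The related Trim30b did not pass (log2 difference -0.33, limma adjusted p = 0.173). Which of the closely related Trim30 mRNAs each probe binds was not tested.

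The 8 probes that rose belong to 6 genes. Both probes of Cavin3, a coat protein of caveolae, rose in KO (2.15-fold, limma adjusted p = 0.00419, and 1.93-fold, limma adjusted p = 0.0117, the latter lost with median scaling). Numa1, a protein of the mitotic spindle, rose 1.85-fold (limma adjusted p = 0.0135, lost without KO replicate 2 and with median scaling). The probes of Trim3 disagreed, 1 at a log2 difference of 0.79 (limma adjusted p = 0.0236, lost in 7 of 13 alternatives, among them each KO replicate left out) and 1 at -0.04 (limma adjusted p = 0.891). Arfip2, Stim1 and Smpd1 make up the rest. Another Arfip2 probe did not pass (log2 difference 0.14, limma adjusted p = 0.538). Nor did the other Smpd1 probes (0.16, limma adjusted p = 0.608, and 0.45, limma adjusted p = 0.0848). The 11 calls near the beta globin genes became 4 without KO replicate 2, 7 without WT replicate 1 or WT replicate 3, and 3 with median scaling.

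Near the alpha globin genes 0 of 21 tested probes passed with limma, and 1 had an unadjusted p under 0.05. Their log2 differences ran from -0.39 (Asb3) to 0.37 (Mpg, a DNA repair enzyme). Near Alas2, on the X chromosome, 3 of 16 tested probes were higher and 1 was lower in KO (25.0 percent). Maged2 rose 1.69-fold (limma adjusted p = 0.0144, lost without KO replicate 2 and with median scaling). The probes of the cohesin gene Smc1a disagreed: 2 rose (log2 difference 0.95 and 0.58), 1 did not pass (0.33), and 1, detected in 0 of 3 KO samples, was at least 1.31-fold lower. The 4 calls became 0 without KO replicate 2 and 2 without KO replicate 3 or without any 1 WT replicate.

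**Figure D4:**
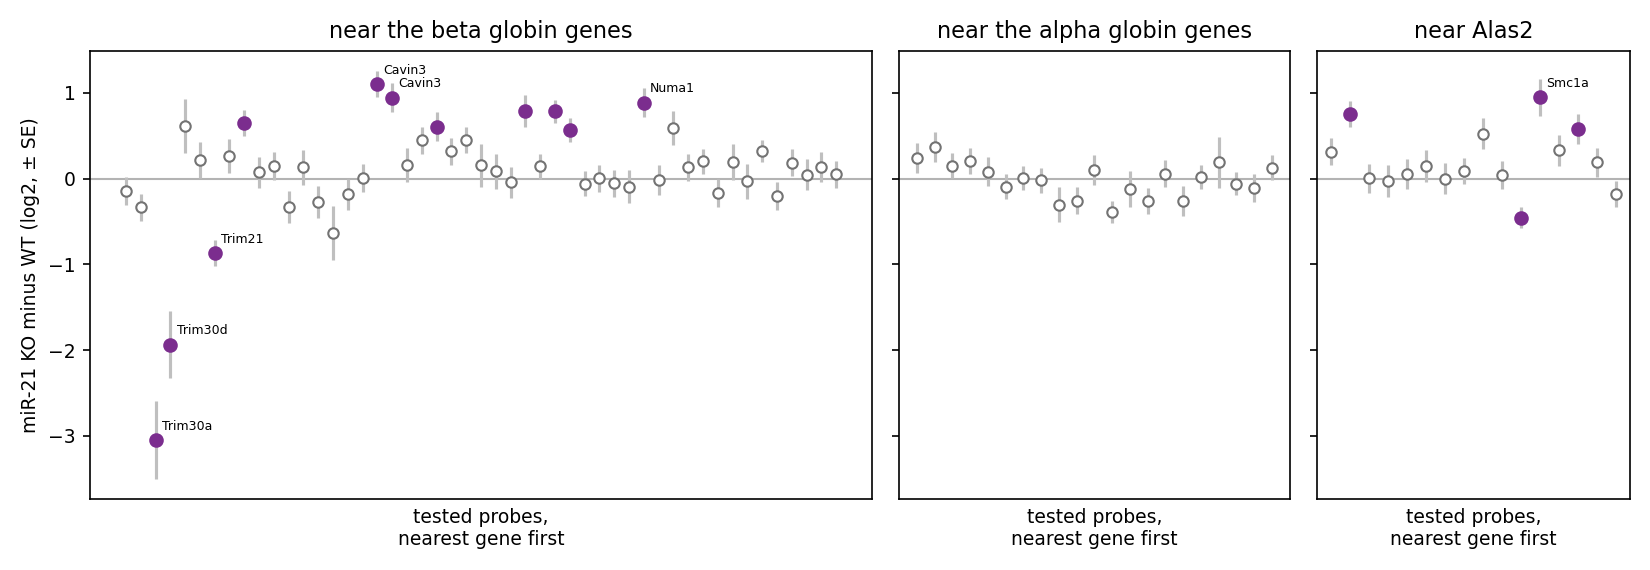
Log2 difference, miR-21 KO minus WT (± SE from limma), of the tested probes within 2 Mb of the beta globin genes, the alpha globin genes and Alas2 (filled, adjusted p under 0.05). Trim30a, Trim30d and Trim21 are the filled points below 0 for the beta globin genes, and no point is filled for the alpha globin genes.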

How the data were processed

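Groups and replicates follow the sample titles. The members and gene lists were chosen with earlier results of these data known. The authors' deposited probe table gives, by its headers, bead intensity, a detection p-value, and other values (bead standard error and bead number) for each probe and array, with no scaling between arrays. A further deposited table gives log2 values of 18010 probes. They correlated with the values computed here at r of at least 0.9999 on each array, which settles their scale and direction; how the authors centred them stays unknown. The submitters' processing notes name limma and no version.

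Intensities went through neqc of limma 3.58.1 in R 4.3.3 (normexp background from the detection p-values, offset 16, quantile normalization, log2). Probes with a detection p under 0.05 in at least 3 of 6 samples were fitted with lmFit and eBayes (KO minus WT, two-sided), and p-values were adjusted by Benjamini-Hochberg over 13737 probes. The procedure was tested on simulated data. No label says that samples are separate animals, so the spread behind the p-values may be technical. The number of arrays limits precision. A fold given as "at least" is a bound: on each array of the group without detection, the lowest detected level replaced the level of the probe where that was lower.

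Gene symbols came from RefSeq's table (GRCm38.p6), by Entrez ID (23788 probes), by accession (1148) or, unmatched, from the file (761). The files state no build, and the table served only for names and neighbours. Named were all member probes, up to 4 passing genes of each list and its brightest gene, up to 4 passing neighbours in each direction, and the 3 genes most like each member; others were named after their values were seen, and a few list genes are not reported here. Alternatives were median scaling, cyclic loess, the deposited log2 values, uncorrected intensities, other filters on dim probes, array weights, a replicate block, a 5 Mb window, all probes of a gene, and each array left out.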

Additional observations from a re-analysis of the deposited data

How the results depend on the processing

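The differences of the members, and of the beta probes against alpha globin and each other, moved by less than 1 SD between replicates in at least 9 of 10 alternatives each. The exception was intensity with no background correction or scaling, which leaves the background in each value: Hbb-b1 had a log2 difference of -0.69, Hbb-b2 0.61, Hbb-b1 minus Hba-a1 -0.74, Hbb-b2 minus Hba-a1 0.57 and Hbb-b1 minus Hbb-b2 -1.30. Leaving out single samples gave -1.90 to -1.53 for Hbb-b1, 1.33 to 2.15 for Hbb-b2, -0.27 to 0.37 for Hba-a1, -0.39 to -0.04 for Alas2, -2.25 to -1.51 for Hbb-b1 minus Hba-a1, 1.47 to 1.79 for Hbb-b2 minus Hba-a1, and -4.03 to -3.12 for Hbb-b1 minus Hbb-b2. Over all probes 2071 passed, 1034 higher and 1037 lower in KO, against 536 with median scaling (193 higher, 343 lower), 3772 with array weights and 460 to 2116 without single samples. The 9 calls of the blood and red cell lists became 5 with median scaling, 21 with array weights, 15 with all tested probes of a gene, and 3 to 13 without single samples. The 11 near the beta globin genes became 3 with median scaling, 22 within 5 Mb, and 4 to 10 without single samples. The 0 near the alpha globin genes became 1 with no filter on dim probes, with array weights and within 5 Mb, and stayed 0 without single samples. The 4 near Alas2 became 0 with median scaling, 2 with the replicate block, 2 with no filter on dim probes, and 0 to 3 without single samples. Fits without a sample have fewer samples, and the cause of the other changes was not tested. The groups share replicate numbers, but deviations of same-numbered samples from their group means correlated at only 0.01, 0.15 and 0.06, and for KO replicates 1 and 3 another WT number correlated better, so the numbers were not taken as pairs; with the replicate block 2154 probes passed. Signal over background limits Hbb-b1 in KO, Hbb-b2 in WT and Alas2 in both groups.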
